A study of Macaca mulatta with 38 samples.

Results

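The insulin-like growth factor (IGF) system was followed through 9 genes: the ligand IGF2, the receptors IGF1R and IGF2R, and the binding-protein genes IGFBP2, IGFBP3, IGFBP4, IGFBP5, IGFBP6 and IGFBP7. They were taken by symbol from a count table of 34619 genes, and all 9 were among the 20794 genes that had enough reads to be tested. IGF2 is a secreted growth factor of the fetus that signals through the tyrosine kinase IGF1R and through the insulin receptor. IGF2R, also the mannose 6-phosphate receptor of lysosomal enzymes, takes up IGF2 for degradation. The binding proteins hold IGFs in the extracellular space, and proteases that cut them release the ligand. In the developing brain IGF2 is known from the meninges, the choroid plexus and blood vessels, and IGF1R from neural progenitors and neurons.

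The 38 libraries came from cultured neural stem cells of wild-type fetal rhesus macaque cortex (Macaca mulatta), in 4 series: Anterior and Posterior cortex at embryonic day 42 (E42), and Frontal and Occipital cortex at E77. Cells of every series grew on fibronectin in N2 medium, which holds bovine insulin, with FGF2 up to day 5 in vitro, and then differentiated without FGF2 in NeuroBasal and B27 with BDNF and NT-3. RNA was taken in the stem phase (days 1, 3 and 5), the transition phase (days 6, 7 and 8) and the terminal phase (days 11, 14 and 17, and at E77 also day 20). That gave 9 libraries per E42 series and 10 per E77 series, 1 for each day, each pooled from 2 wells. The days of a phase served as its replicates, so every SD below holds the change over those days as well as the spread between wells. Where groups of days are said not to overlap, the share of all genes without overlap was not counted. The labels do not say that days or series came from separate animals: the p-values measure only the spread between these libraries, and age and region cannot be told apart from fetus, dissection or culture run. Insulin in the medium was not varied between the series. The medium changed after day 5, and the insulin levels of the stem and later media were not compared.

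Library totals ran from 20149635 to 56363300 counted reads. The neural stem cell gene SOX2, a marker of the labelled cell type, stood at 348 to 1130 CPM (counts scaled to the library total) over all libraries, so it was present in every series. The E42 Anterior libraries also held transcripts of fibroblasts and meninges. The sum of 9 such markers, with PDGFRA left out, was 14000 to 39100 CPM there, highest on day 5. It was 26.7 to 273 in E42 Posterior, 8.38 to 108 in E77 Frontal and 3.97 to 25.0 in E77 Occipital. PDGFRA, the remaining gene of the list, went another way and was highest in E77 Occipital (564 to 1760 CPM). It ran from 130 to 689 CPM in E42 Anterior, 65.6 to 159 in E42 Posterior and 210 to 530 in E77 Frontal. COL1A1, the type I collagen gene of fibroblasts, ran from 4560 to 16300 CPM in E42 Anterior and never above 122 elsewhere, and the meningeal gene FOXC1 from 85.8 to 349 against at most 1.26. Choroid plexus markers summed to 2.83 to 18.2 CPM and microglial markers to at most 1.65 CPM in every library. In these bulk samples fewer cells of a type and less RNA per cell cannot be told apart.

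IGF2 was one of the most abundant transcripts of the E42 Anterior cultures and close to absent in the others. Levels per gene length are given as RPKM, reads scaled to gene length and library total. In E42 Anterior IGF2 stood at 350, 402 and 853 RPKM on days 1, 3 and 5, at 548, 409 and 440 on days 6 to 8, and at 343, 454 and 547 on days 11, 14 and 17. With a mean of 483 RPKM it ranked 63rd of the 20794 tested genes there, and it took 0.133 to 0.331% of all counted reads. In E42 Posterior it was 2.08, 3.33 and 0.856 RPKM in the stem phase, 0.579, 0.844 and 0.617 in transition and 0.563, 0.55 and 0.296 in the terminal phase. Its lowest Anterior value was thus far above its highest Posterior value, and no days overlapped.

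At E77 IGF2 was lower again. E77 Frontal gave 0.48, 0.605 and 0.545 RPKM on days 1, 3 and 5, then 0.126 to 0.186 in transition and 0.0444, 0.0388, 0.0282 and 0.0312 on days 11 to 20. E77 Occipital ran from 0 reads on day 1 to 0.151 RPKM on day 8, or 16 reads. Frontal was therefore highest before FGF2 was withdrawn, while Occipital had no phase apart from the others. In 12 of the 20 E77 libraries IGF2 rested on fewer than 10 reads, and such values carry large counting error.

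**Figure D1:**
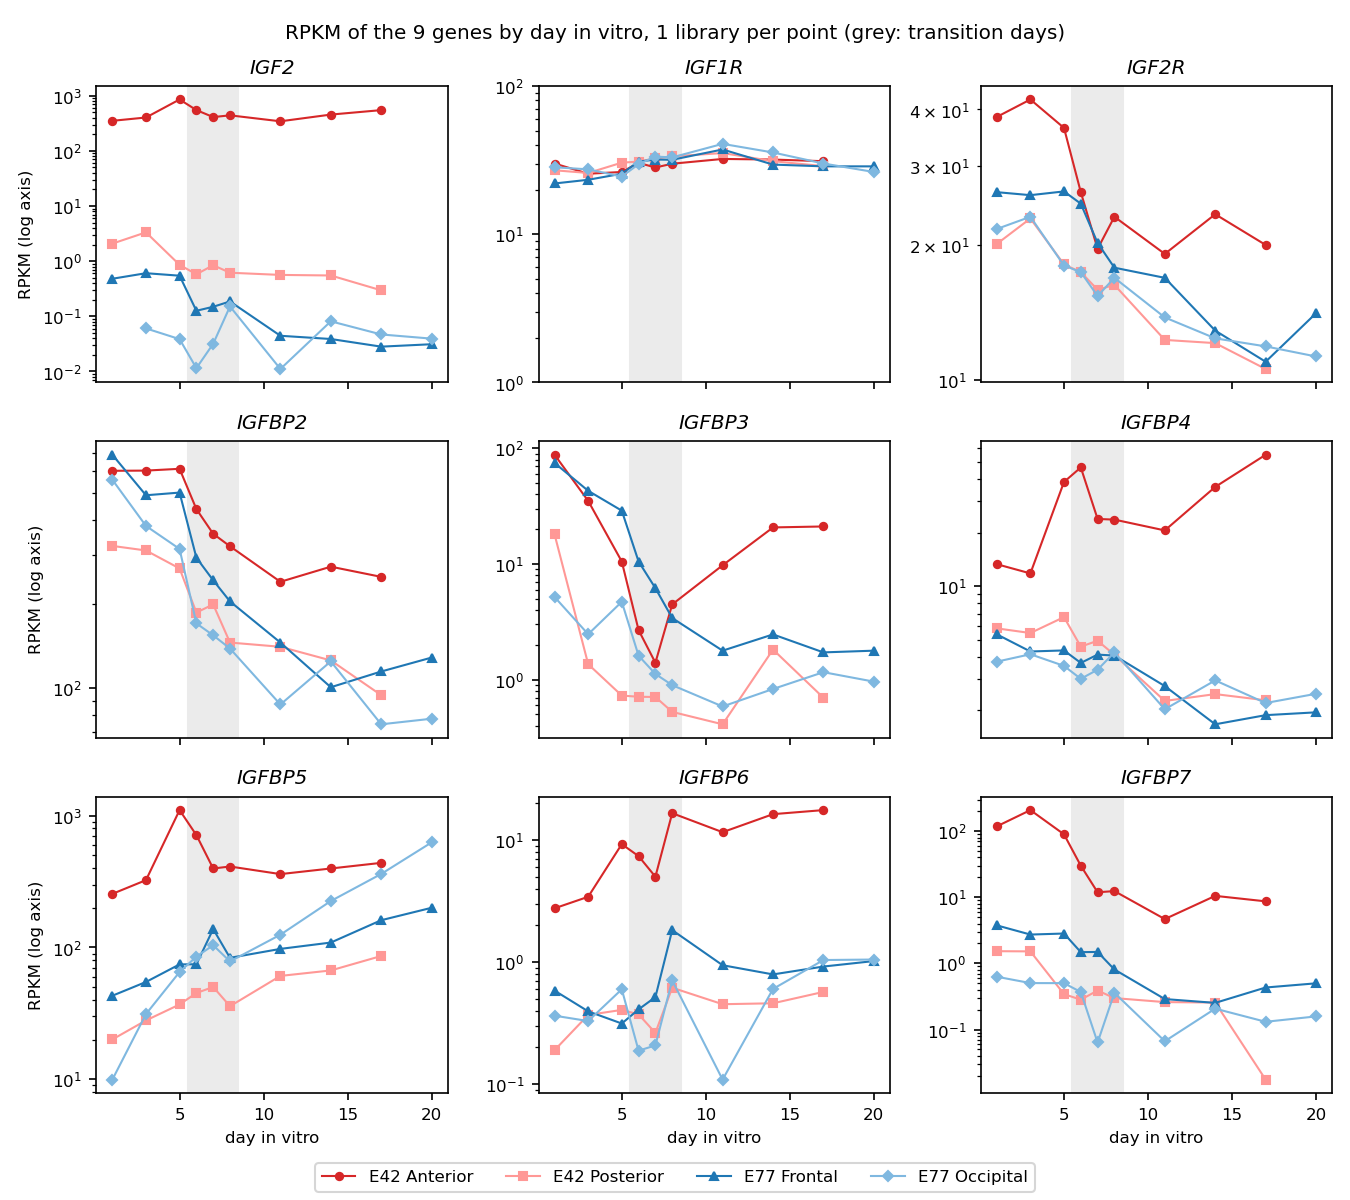
RPKM (log axis) of the 9 genes by day in vitro, 1 library per point, in the 4 series; the grey band marks the transition days, and the E77 Occipital day 1 value of IGF2, at 0 reads, is not drawn. E42 Anterior lies far above the other series for IGF2, IGFBP4, IGFBP6 and IGFBP7. The 4 lines of IGF1R lie close together, drawn on an axis set wider than its values.

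IGF2 had the largest differences of the 9 members between the E42 regions and between the ages. Anterior exceeded Posterior at E42 by 9.19 ± 0.28 on the log2 scale (SE), 584-fold, with means of 2000 ± 694 and 4.13 ± 3.73 CPM (SD, n = 9 each; edgeR quasi-likelihood test with day as a block, adjusted p = 1.9e-17). E77 was below E42 in the stem phase, with a log2 difference of -8.05 ± 0.39 (adjusted p = 3.1e-13). With E42 Anterior set aside, E77 Occipital was still below E42 Posterior, with log2 differences of -5.89 ± 0.70 in the stem phase (adjusted p = 7.8e-05), -3.44 in transition (adjusted p = 0.0018) and -3.19 in the terminal phase (adjusted p = 0.0036). Within E77, Frontal was above Occipital in the stem phase by 3.94 ± 0.90 (adjusted p = 0.0026), from 43 to 51 reads per library against 0 to 6. Over all E77 days the same difference was 1.54 and did not pass (adjusted p = 0.085).

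IGF2 fell with differentiation in E42 Posterior and E77 Frontal. From the stem to the terminal phase the log2 change was -2.16 ± 0.41 in Posterior (adjusted p = 0.00011) and -3.83 ± 0.63 in E77 Frontal (adjusted p = 1.8e-05), with no overlap between the phases in either series. In E42 Anterior it was -0.33 ± 0.33 (adjusted p = 0.47), and 0.16 without the day 5 library. In E77 Occipital it was 0.56 ± 1.02 (adjusted p = 0.7). The change in Anterior minus that in Posterior was 1.83 ± 0.52 (adjusted p = 0.033), a call that was lost when any 1 of 8 of the 12 libraries compared was left out. In E42 Anterior IGF2 and the fibroblast and meningeal markers both peaked in the day 5 library (3680 CPM for IGF2 and 39100 CPM for the markers). From day 1 to day 3 the markers went there from 17700 to 29500 CPM and IGF2 from 1500 to 1710 CPM. In E42 Posterior the markers went from 74.8 to 273 CPM in the stem phase to 26.7 to 30.3 CPM in the terminal phase. In E77 Frontal they went from at least 77.2 CPM to at most 17.2 CPM between these phases. The Frontal markers stood at 95.3, 90.0 and 108 CPM on days 5, 6 and 7. IGF2 went there from 2.09 CPM on day 5 to 0.45 and 0.556 CPM on days 6 and 7. On day 8 the markers were at 30.6 CPM and IGF2 at 0.686 CPM. The part of these cells in the IGF2 values was not tested.

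**Figure D2:**
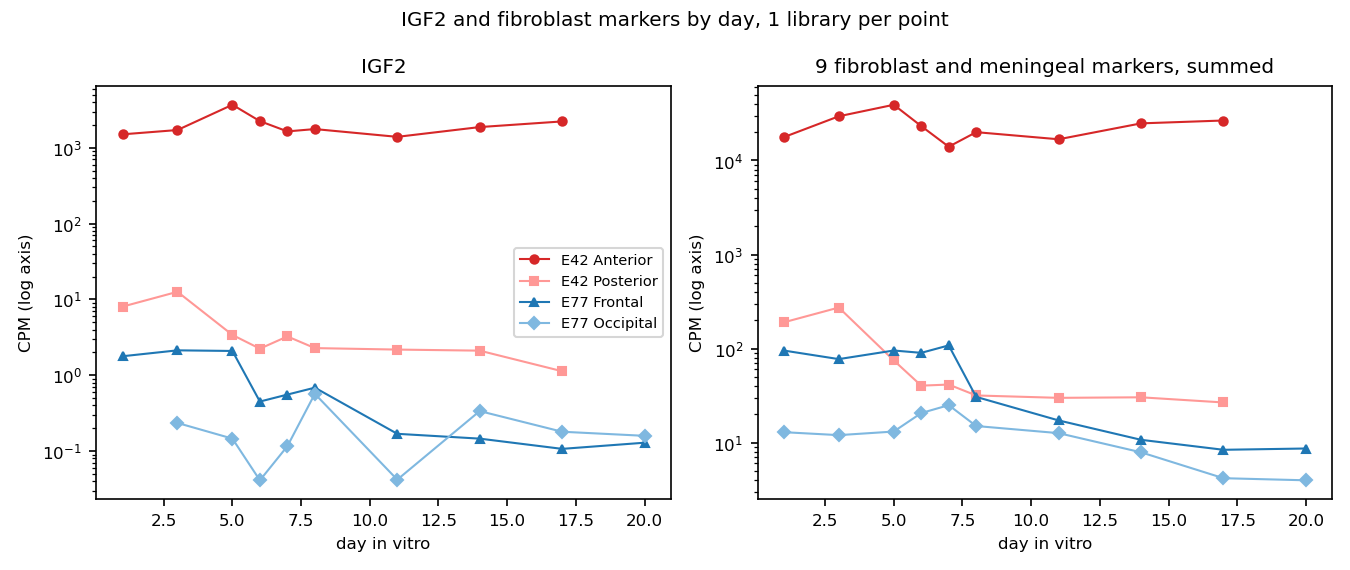
IGF2 (left) and the sum of 9 fibroblast and meningeal markers without PDGFRA (right) in CPM on log axes by day in vitro, 1 library per point in 4 series; the E77 Occipital day 1 value of IGF2, at 0, is not drawn. Both stand highest in E42 Anterior, where both peak on day 5.

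H19, the non-coding RNA imprinted together with IGF2, was also highest in E42 Anterior, at 476 to 1490 RPKM (25th of the tested genes by its mean). It was 0.868 to 5.45 RPKM in E42 Posterior and 0.985 to 1.99 in E77 Occipital. In E77 Frontal it went from 42.1 RPKM on day 1 to 2.11 on day 20. Its stem-phase values there, 42.1, 36.6 and 29.3 RPKM, lay above those of E42 Posterior, whereas IGF2 lay below. IGF1, the other ligand, stayed low in all series. It was highest in E42 Anterior on day 17, at 1.89 RPKM. In E77 Frontal it reached 1.1 RPKM on day 3 and fell by 2.68 ± 0.58 on the log2 scale to the terminal phase (adjusted p = 0.00044), whereas in E42 Anterior it rose by 1.86 ± 0.60 (adjusted p = 0.016).

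IGF1R, the signalling receptor, was the steadiest member. Its highest library was 1.85-fold its lowest, against 3.98-fold for IGF2R and 9.23-fold (IGFBP2) or more for the binding proteins. E42 Anterior gave 30.0, 25.6 and 26.3 RPKM in the stem phase, 30.3, 28.2 and 29.9 in transition and 32.2, 31.9 and 31.1 in the terminal phase. The stem-phase values of E42 Posterior were 27.0, 25.9 and 30.4, those of E77 Frontal 22.0, 23.3 and 25.6, and those of E77 Occipital 28.3, 27.4 and 24.5. All 4 series had their highest value on day 11, at 32.2, 35.3, 37.3 and 40.7 RPKM in the order above. Averaged over the series, IGF1R was 0.28 ± 0.06 higher on the log2 scale in the terminal than in the stem phase (adjusted p = 9.5e-05). The rise passed in E77 Frontal (0.46 ± 0.11, adjusted p = 0.0016) and E77 Occipital (0.35, adjusted p = 0.014), and the Occipital call was lost without day 5, 11 or 14. In E42 Anterior and E42 Posterior the changes were 0.15 and 0.19 and did not pass (adjusted p = 0.37 and 0.23). The difference of this change between the ages was itself not called (0.24 ± 0.12, adjusted p = 0.14). The level of IGF1R in the stem phase was called lower at E77 than at E42, with a log2 difference of -0.24. In the transition and terminal phases the age difference of its level was -0.06 and 0.04 and was not called.

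Anterior and Posterior E42 cultures, which differed 584-fold in IGF2, differed in IGF1R by 0.06 ± 0.06 on the log2 scale (162 ± 10.9 and 156 ± 15.8 CPM, n = 9 each, adjusted p = 0.43). The insulin receptor INSR, which forms hybrids with IGF1R and also binds IGF2, ran from 5.77 to 13.6 RPKM. It rose by 0.48 ± 0.06 from the stem to the terminal phase (adjusted p = 9.5e-09), and IGF1R was 2.16 to 5.2 times as high as INSR per length.

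IGF2R, the uptake receptor, fell in all 4 series. In E42 Anterior it was 38.5, 42.1 and 36.4 RPKM in the stem phase, 26.2, 19.6 and 23.1 in transition and 19.1, 23.4 and 20.0 in the terminal phase. E42 Posterior went from 20.1, 22.9 and 18.1 to 12.3, 12.1 and 10.6 RPKM, E77 Frontal from 26.2, 25.8 and 26.3 to 16.9, 12.9, 11 and 14.1, and E77 Occipital from 21.7, 23.1 and 18.0 to 13.8, 12.4, 11.9 and 11.3. In no series did the stem and terminal days overlap. The log2 changes were -0.97 ± 0.13, -0.81 ± 0.13, -0.86 ± 0.12 and -0.72 ± 0.12, each with an adjusted p of 2.8e-05 or lower. IGF2R thus lay at or above IGF1R early and below it late in 2 of the series: the ratio of their RPKM was 1.28 on day 1 and 0.644 on the last day in E42 Anterior, and 1.19 and 0.494 in E77 Frontal. In E42 Posterior it went from 0.745 to 0.367 and in E77 Occipital from 0.767 to 0.428.

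IGF2R was also higher in Anterior than in Posterior at E42 by 0.86 ± 0.07 on the log2 scale (263 ± 92.6 and 142 ± 34.9 CPM, n = 9 each, adjusted p = 2.2e-11). The Frontal excess over Occipital at E77 was smaller, 0.24 ± 0.06 (adjusted p = 0.0046), and the difference between these regional differences passed (-0.62 ± 0.09, adjusted p = 4.5e-06).

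The 6 binding-protein genes changed in different directions. IGFBP2 and IGFBP5 made up 78.2 to 99.3% (median 97.4%) of their summed RPKM in every library. IGFBP2, a binding protein of progenitors and glia, led in all series on day 1, and IGFBP5 in 14 of the 38 libraries.

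IGFBP2 fell in every series. E42 Anterior gave 602, 603 and 612 RPKM in the stem phase and 241, 273 and 251 in the terminal phase, and E42 Posterior 324, 312 and 269 and then 141, 126 and 94.6. E77 Frontal gave 687, 492 and 503 and then 146, 101, 115 and 129, and E77 Occipital 559, 382 and 316 and then 87.6, 125, 74.4 and 77.9. Stem and terminal days did not overlap in any series, and the transition days lay between them, falling from day 5 to day 6 by a factor of 1.39 to 1.85.

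The log2 changes of IGFBP2 from stem to terminal at E42 were -1.32 ± 0.21 (Anterior) and -1.33 ± 0.21 (Posterior), and at E77 -2.12 ± 0.19 (Frontal) and -2.15 ± 0.19 (Occipital; adjusted p between 2.8e-09 and 1.6e-05). The fall was larger at E77 by 0.81 (log2 difference -0.81 ± 0.20, adjusted p = 0.005). Without day 1 this difference was -0.57 (adjusted p = 0.055), and in the Occipital and Posterior pair alone -0.80 (adjusted p = 0.17). IGFBP2 was higher in Anterior than in Posterior at E42 by 1.17 ± 0.10 (adjusted p = 2.3e-10) and higher in Frontal than in Occipital at E77 by 0.48 ± 0.09 (adjusted p = 0.00023).

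IGFBP5, which binds IGFs in the extracellular matrix, rose in both E77 series, and its largest change was in E77 Occipital. There it went from 9.97 RPKM on day 1 through 31.3 and 65.2 on days 3 and 5, 85.3, 104 and 78.4 on days 6 to 8, to 125, 225, 361 and 626 on days 11 to 20, 62.8-fold the first value. E77 Frontal went from 43.1, 54.8 and 74.5 to 97.6, 109, 161 and 200 RPKM, and E42 Posterior from 20.1, 28.0 and 37.0 to 60.9, 67.0 and 86.2. E42 Anterior was high throughout, with 255 and 324 RPKM on days 1 and 3, a peak of 1100 on day 5, and 360, 397 and 438 in the terminal phase. Stem and terminal days overlapped only in E42 Anterior.

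From stem to terminal, IGFBP5 rose by 3.29 ± 0.56 on the log2 scale in E77 Occipital (adjusted p = 3.2e-05; 4.06 without its day 5) and by 1.38 ± 0.51 in E77 Frontal (adjusted p = 0.03), the latter call being lost without day 1, 3, 17 or 20 (1.13 to 1.34). In E42 Posterior the change was 1.32 ± 0.54 (adjusted p = 0.052), and in E42 Anterior -0.57 ± 0.53 (adjusted p = 0.44), or 0.37 without day 5. The change was larger at E77 than at E42 by 1.96 ± 0.52 (adjusted p = 0.0091), although neither region pair alone passed (1.95, adjusted p = 0.069, for Frontal against Anterior, and 2.00, adjusted p = 0.16, for Occipital against Posterior). In E77 Occipital PDGFRA, a gene of fibroblasts and also of oligodendrocyte precursors, went from 564 to 607 CPM in the stem phase to 959, 1260, 1570 and 1760 on days 11 to 20. The other 9 fibroblast markers fell there to 3.97 CPM in sum on day 20, with COL1A1 at 0.0613 to 2.81 CPM over the series. The 6 astrocyte markers moved with IGFBP5 only in part. In E77 Occipital 4 of them rose (41.2% of all genes changed there). Their sum went from 2160 to 2670 CPM in the stem phase to 3780 to 7420 CPM in the terminal phase. In E77 Frontal 5 rose (43.2% of all genes changed), with sums of 4980 to 6540 and 5120 to 9670 CPM. The Frontal sum was 6540 CPM on day 5 and 5120 CPM on day 11, while IGFBP5 was higher on day 11. In E42 Posterior the sum went from 616 to 696 CPM to 1320 to 1800 CPM. It also rose in E42 Anterior, from 1430 CPM on day 1 to 2440 CPM on day 17, where the IGFBP5 change did not pass. The part of PDGFRA-expressing cells or of astrocytes in the rise of IGFBP5 was not tested.

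IGFBP5 differed between the E77 regions in opposite directions early and late, but the test of the turn itself did not pass (-1.91 ± 0.71, adjusted p = 0.21). Frontal was above Occipital in the stem phase by 0.93 ± 0.32 on the log2 scale (adjusted p = 0.037), a call lost without day 1 or 3 of either series. In the terminal phase it was below it by 1.11 (log2 difference -1.11 ± 0.27, adjusted p = 0.0066), a call lost without day 20 (-0.94, adjusted p = 0.061). Without day as a block neither phase passed (0.65, adjusted p = 0.49, and -1.26, adjusted p = 0.11), and the day number is not shown to pair the libraries.

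IGFBP2 and IGFBP5 crossed in 3 of the series. The share of IGFBP2 in the summed binding-protein RPKM went from 55.8% on day 1 to 31.8% on the last day in E42 Anterior, from 87.7 to 51.3% in E42 Posterior, from 84.3 to 38.6% in E77 Frontal and from 96.6 to 11% in E77 Occipital. IGFBP5 went from 23.7 to 55.3%, from 5.43 to 46.7%, from 5.3 to 59.9% and from 1.72 to 88.4% in the same order. It was the larger of the pair from day 5 in E42 Anterior, from day 11 in E77 Occipital and from day 14 in E77 Frontal. In E42 Posterior it reached 0.911 of IGFBP2 on day 17. In the macaque RefSeq gene table (assembly T2T-MMU8v2.0) the genes are neighbours, IGFBP2 followed by IGFBP5. Over the 29 libraries outside E42 Anterior the log2 CPM of the pair had a Pearson r of -0.71, and over all 38 of -0.01; these libraries share days, series and normalisation, so r is only a description.

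**Figure D3:**
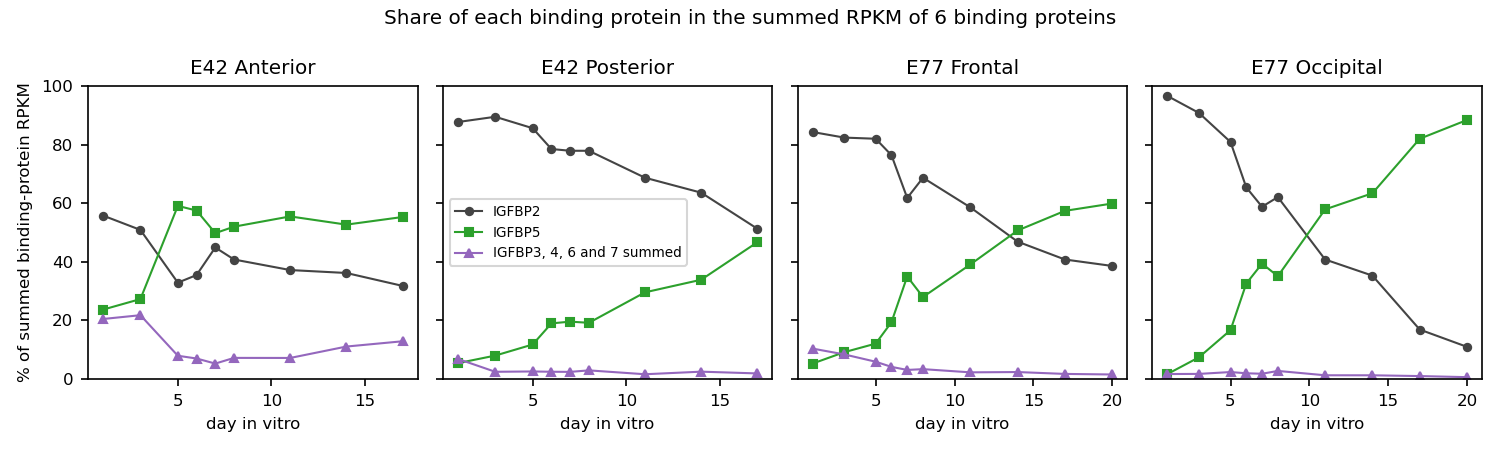
Share (%) of IGFBP2, of IGFBP5 and of IGFBP3, IGFBP4, IGFBP6 and IGFBP7 together in the summed RPKM of the 6 binding-protein genes by day in vitro, 1 panel per series and 1 library per point. The IGFBP5 line crosses above the IGFBP2 line in every series but E42 Posterior, where the last values are 46.7% and 51.3%.

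IGFBP3, the main carrier of IGFs in serum, was highest at the start of culture. On days 1, 3 and 5 E42 Anterior gave 87.9, 35.1 and 10.5 RPKM, E42 Posterior 18.0, 1.36 and 0.728, E77 Frontal 74.7, 42.9 and 28.9, and E77 Occipital 5.18, 2.47 and 4.71. Day 1 was the highest day of every series. By day 11 E42 Posterior, E77 Frontal and E77 Occipital were at 0.411, 1.78 and 0.586 RPKM. E42 Anterior went from 1.4 on day 7 to 9.74, 20.7 and 21.1 on days 11, 14 and 17. The other series had later values of up to 1.82 (E42 Posterior, day 14, 105 reads), 2.46 (E77 Frontal, day 14) and 1.16 RPKM (E77 Occipital, day 17). IGFBP3 fell by 4.58 on the log2 scale in E77 Frontal (-4.58 ± 0.74, adjusted p = 1.5e-05) and by 2.16 in E77 Occipital (-2.16 ± 0.74, adjusted p = 0.02; not called without day 1 or day 5). The fall in E42 Posterior (-2.84 ± 0.83, adjusted p = 0.0074) rested on its day 1 library, since without it the change was -0.16 (adjusted p = 0.89). In E42 Anterior the change was -1.44 ± 0.72 (adjusted p = 0.12), and -1.94 without day 5 (adjusted p = 0.044). Frontal exceeded Occipital in the stem phase by 3.34 ± 0.59 (132 ± 63.6 and 11.6 ± 4.04 CPM, n = 3 each, adjusted p = 0.00026), with no overlap.

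IGFBP7, a weak IGF binder found in vessel walls, fell in all 4 series. E42 Anterior gave 118, 208 and 89.5 RPKM in the stem phase, 30.0, 11.9 and 12.4 in transition and 4.68, 10.5 and 8.68 in the terminal phase, a log2 change of -4.18 ± 0.44 (adjusted p = 1e-07). E77 Frontal went from 3.76, 2.73 and 2.83 to 0.253 to 0.5 RPKM (-2.96 ± 0.48, adjusted p = 1.4e-05). E42 Posterior went from 1.53, 1.52 and 0.343 to 0.26, 0.256 and 0.0175, the last from 1 read (-2.72 ± 0.64, adjusted p = 0.0013). E77 Occipital, at 3 to 31 reads, changed by -1.83 ± 0.66 (adjusted p = 0.027), and 5 of its 7 stem and terminal libraries each ended the call when left out. The summed pericyte and smooth muscle markers fell with IGFBP7 in every series. In E42 Anterior their sum was 2010 to 6220 CPM in the stem phase and 289 to 384 CPM in the terminal phase. All 8 of them fell there, where 34.1% of all genes changed in either direction. From day 5 to the last day the sum went from 571 to 164 CPM in E42 Posterior. It went from 556 to 276 CPM in E77 Frontal and from 575 to 237 CPM in E77 Occipital. In these series 7, 3 and 4 of the 8 fell and 0 rose, where 39.4, 43.2 and 41.2% of all genes changed. Of the 7 endothelial markers 1 rose and 1 fell in E42 Anterior. They summed there to 147, 58.7 and 24.6 CPM on days 1, 3 and 5 and to 51.4, 63.6 and 93.6 CPM in the terminal phase. In E77 Frontal 5 of them fell and 0 rose, with a sum of 40.3 CPM on day 1 and 3.18 CPM on day 20. In E42 Posterior 2 fell and in E77 Occipital 3, and 0 rose in either. The part of these cells in the fall of IGFBP7 was not tested.

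IGFBP4 and IGFBP6 were low outside E42 Anterior. IGFBP4, a binding protein that the protease PAPPA cuts, went from 13.3 and 11.8 RPKM on days 1 and 3 to 38.6 on day 5 and 20.6, 36.2 and 54.9 in the terminal phase of E42 Anterior (log2 change 0.74 ± 0.32, adjusted p = 0.075; 1.48 without day 5, adjusted p = 0.00019). Elsewhere it stayed at or below 6.7 RPKM. It fell in E42 Posterior (-1.37 ± 0.35, adjusted p = 0.0024) and E77 Frontal (-1.11 ± 0.33, adjusted p = 0.0064), and in E77 Occipital the change was -0.61 (adjusted p = 0.13). The change in Anterior minus that in Posterior was 2.10 ± 0.47 (adjusted p = 0.006).

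IGFBP6, which prefers IGF2 over IGF1, ran from 2.76 RPKM on day 1 to 17.6 on day 17 in E42 Anterior and from 0.109 to 1.83 RPKM (3 to 54 reads) in the other libraries. Its rise in E42 Anterior, 1.48 ± 0.50 (adjusted p = 0.022), was not called without day 1, 3, 14 or 17 (1.16 to 1.40) and was 2.20 without day 5. The average over the series was 1.01 ± 0.30 (adjusted p = 0.0042).

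Averaged over the 4 series, all 9 members changed between the stem and the terminal phase, 3 higher (IGF1R, IGFBP5 and IGFBP6) and 6 lower. Of all tested genes 62.4% changed in this comparison, 31.9% higher and 30.4% lower, so a change by itself was common. The median log2 change of the members was -0.84 and of all tested genes 0.00. The largest falls were those of IGFBP7 (-2.92 ± 0.28, adjusted p = 2.7e-10), IGFBP3 (-2.76 ± 0.38, adjusted p = 3.3e-07; -2.09 without day 1 of E42 Posterior) and IGFBP2 (-1.73 ± 0.10, adjusted p = 1.5e-14). All 9 calls were also made without the E42 Anterior series, where IGF2 changed by -1.86, IGFBP4 by -1.07 and IGFBP5 by 1.96.

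Between the stem and the transition phase 5 members changed (41.6% of all genes): IGF1R rose by 0.20, and IGF2R (-0.48), IGFBP2 (-1.07), IGFBP3 (-3.04) and IGFBP7 (-1.80) fell. From the transition to the terminal phase 5 changed (41.9% of all genes): IGF2R (-0.36), IGFBP2 (-0.66), IGFBP4 (-0.50) and IGFBP7 (-1.12) fell and IGFBP5 rose by 0.75, a call lost without day 20 (0.56, adjusted p = 0.075). IGF2R, IGFBP2 and IGFBP7 thus fell in both steps, while for IGFBP3 the second step was 0.28 and did not pass (adjusted p = 0.59).

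Within the series, stem to terminal, the number of members that changed was 4 for E42 Anterior (34.1% of all genes), 6 for E42 Posterior (39.4%), 8 for E77 Frontal (43.2%) and 6 for E77 Occipital (41.2%). IGF2R, IGFBP2 and IGFBP7 fell in all 4. The age difference of this change was called for 2 members (19.4% of all genes), IGFBP2 and IGFBP5. Its region difference at E42 was called for 2 (5.44% of all genes), IGF2 and IGFBP4, and at E77 for 0 (1.52% of all genes) by edgeR. At an unadjusted p under 0.05 there were 3 (IGF2, IGFBP3 and IGFBP5) in the last comparison, and DESeq2's Wald test called 1.

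**Figure D4:**
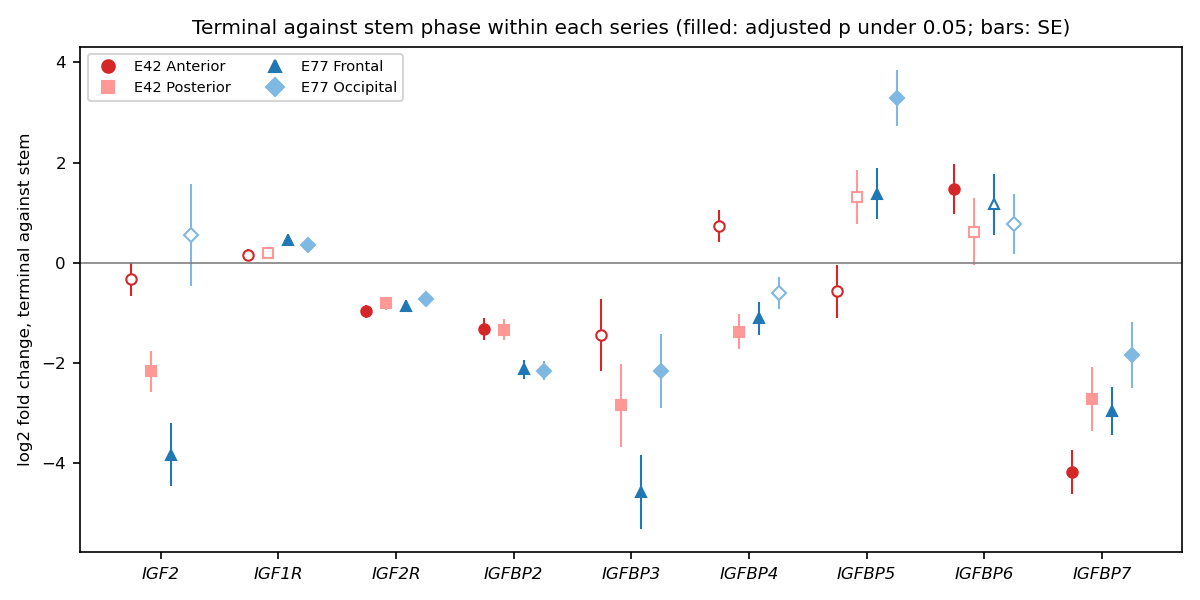
Log2 fold change (terminal against stem phase) of each member in each series, with SE bars; filled points have an adjusted p under 0.05 and open points do not (edgeR). IGF2R, IGFBP2 and IGFBP7 lie below 0 in all 4 series, and IGFBP5 spreads from -0.57 in E42 Anterior to 3.29 in E77 Occipital.

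Between regions at E42, 8 members were higher in Anterior and 0 lower, IGF1R being the member not called. Of all genes 55.3% differed, 25.1% higher and 30.3% lower. After IGF2 the largest log2 differences were those of IGFBP7 (6.15 ± 0.25), IGFBP6 (4.52 ± 0.22), IGFBP5 (3.47 ± 0.20), IGFBP3 (3.28 ± 0.37) and IGFBP4 (2.91 ± 0.21), each with an adjusted p of 1.4e-07 or lower. For IGF2, IGFBP4, IGFBP5, IGFBP6 and IGFBP7 no Anterior day overlapped a Posterior day. How many of all genes had no such overlap was not counted, so this is only a description. All 10 fibroblast and meningeal markers were also higher in Anterior, with a median log2 difference of 8.48, as were 6 of 8 pericyte and smooth muscle markers (median 2.19). Their part in these differences was not tested.

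Between regions at E77, 4 members were higher in Frontal over all days (30.1% of all genes differed): IGF2R, IGFBP2, IGFBP3 (2.30 ± 0.35, adjusted p = 2e-05) and IGFBP7 (2.02 ± 0.32, adjusted p = 3.6e-05). In the stem phase these were 4 as well (22.7% of all genes), namely IGF2, IGFBP3, IGFBP5 and IGFBP7, and in the terminal phase 1, IGFBP5, lower in Frontal (13.6% of all genes). Over all E77 days 6 of the 10 fibroblast and meningeal markers were higher in Frontal and 1 lower. Their sum was 240 to 539 CPM in Frontal and 577 to 1760 CPM in Occipital, and without PDGFRA at most 108 and 25.0 CPM. The regional difference itself differed between the ages for 7 members (38.6% of all genes): IGF2 by -7.65, IGFBP7 by -4.13, IGFBP6 by -3.96, IGFBP5 by -3.48, IGFBP4 by -2.88, IGFBP2 by -0.68 and IGF2R by -0.62. All were smaller at E77, where Frontal was compared with Occipital, than at E42.

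Between ages 7 members were lower at E77 in the stem phase (60.2% of all genes differed), 6 in transition (56.8%) and 7 in the terminal phase (45.0%), and none was higher. The 7 of the stem phase were all members but IGFBP2 and IGFBP3, and so held IGF1R (-0.24). These averages hid unlike region pairs. With only the 2 series of a pair fitted, in E77 Frontal against E42 Anterior 8, 6 and 8 members passed in the 3 phases, all lower at E77, where 53.5, 42.3 and 36.5% of all genes passed. In the stem phase the log2 differences of that pair were -5.60 for IGFBP7, -3.63 for IGFBP6, -3.21 for IGFBP5 and -2.19 for IGFBP4. In E77 Occipital against E42 Posterior 3, 2 and 2 members passed, a share near or below the 34.3, 35.1 and 28.7% of all genes. Beside IGF2 these were IGFBP2 (0.43, adjusted p = 0.041) and IGFBP4 (-0.65, adjusted p = 0.024) in the stem phase, and IGFBP5, higher at E77, in transition (1.02, adjusted p = 0.024) and in the terminal phase (1.67, adjusted p = 0.0024). IGFBP5 in the terminal phase was lower at E77 in the Frontal and Anterior pair (-1.83, adjusted p = 0.0039), so its average difference of -0.08 held opposite values. IGF2 was lower at E77 in both pairs and in all 3 phases.

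**Figure D5:**
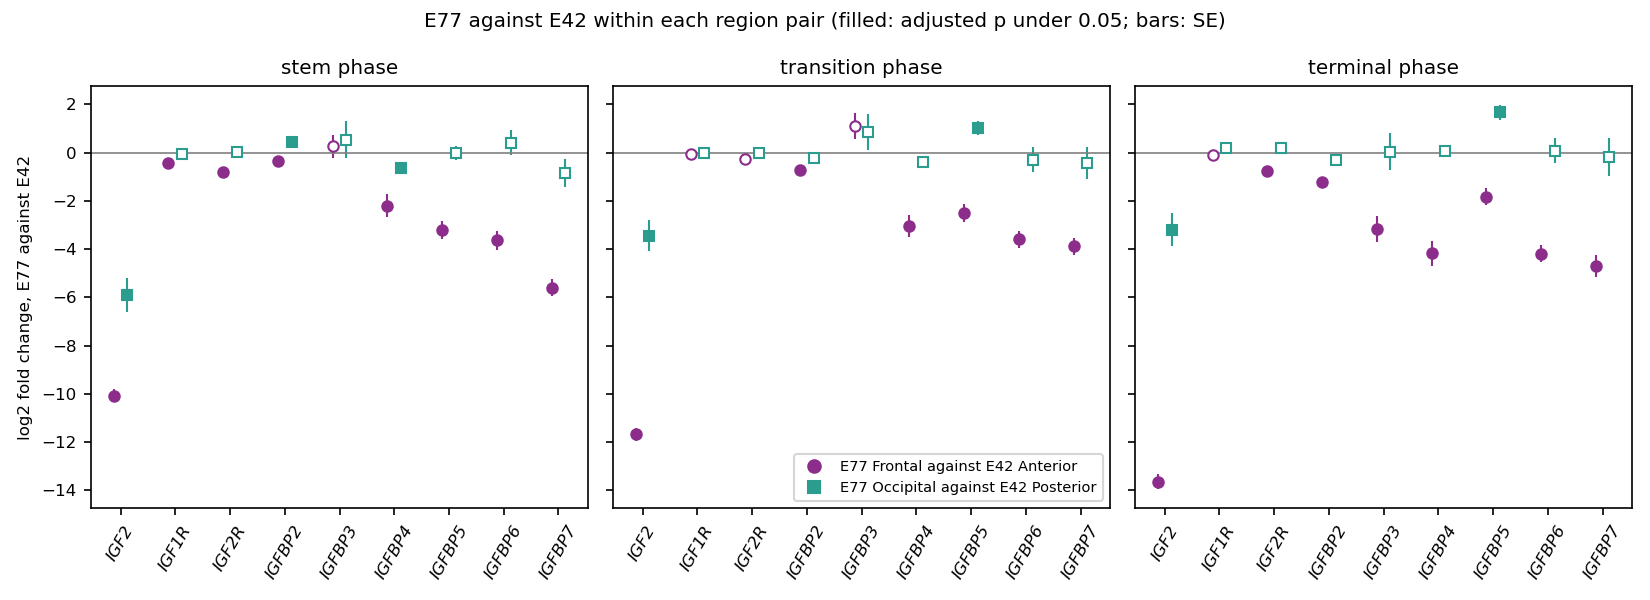
Log2 fold change (E77 against E42) of each member in the stem, transition and terminal phases, for Frontal against Anterior and Occipital against Posterior, with SE bars; filled points have an adjusted p under 0.05 (edgeR). Frontal against Anterior reaches -13.64 for IGF2, while in Occipital against Posterior most points beside IGF2 lie near 0 and IGFBP5 reaches 1.67.

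The other ligands, receptors and binding proteins of the system add IGFBPL1, a binding-protein-like gene of neurons and their precursors, which rose in all series: from 20.5 to 89.6 RPKM between the first and last day in E42 Anterior, from 30.8 to 101 in E42 Posterior, from 7.24 to 56.6 in E77 Frontal and from 6.01 to 91.4 in E77 Occipital. Its average rise from stem to terminal was 1.72 ± 0.21 (adjusted p = 3.3e-08). The growth hormone receptor GHR fell (-0.95 ± 0.10, adjusted p = 3.2e-09). Of the 8 genes of this list 6 could be tested, and 2 rose and 1 fell in this comparison. Of all tested genes 31.9% rose and 30.4% fell.

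Of 11 genes that cut binding proteins or restrain those proteases, 4 rose and 5 fell from stem to terminal. The shares of all tested genes were 31.9% and 30.4%. PAPPA, the protease of IGFBP4 and IGFBP5, fell on average over the series (-2.87 ± 1.11, adjusted p = 0.026). It stood at 3.28 to 319 CPM in E42 Anterior and at no more than 6.24 CPM in E77 Frontal, 2.27 in E42 Posterior and 0.289 in E77 Occipital. TIMP1, a metalloprotease inhibitor, fell (-1.24 ± 0.11), HTRA1, a secreted serine protease, fell (-0.83 ± 0.08), and the protease gene ADAM12 (1.55 ± 0.34) and the stanniocalcin STC1 (1.22 ± 0.13) rose. In Anterior against Posterior at E42, 8 of the 11 were higher and 0 lower, where 25.1% of all tested genes were higher and 30.3% lower. The largest were PAPPA (7.09 ± 0.27, 63.7 against 0.367 CPM) and STC2, an inhibitor of PAPPA (5.00 ± 0.47). PAPPA thus reached its highest values in the series where IGF2 and IGFBP4 were highest. Its lowest value there, 3.28 CPM, lay below the highest of E77 Frontal, 6.24 CPM.

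Of 32 genes that carry the signal inside the cell, 16 rose and 8 fell from stem to terminal, where 31.9 and 30.4% of all tested genes did. Their median log2 change was 0.13 against 0.00 for all genes. The inositol phosphatase gene INPPL1 (-1.06 ± 0.12) and the receptor-binding adaptor GRB10 (-0.93 ± 0.10) fell, and the insulin receptor substrate IRS2 (0.52 ± 0.06) rose. Between regions at E42, 11 were higher in Anterior and 12 lower (25.1 and 30.3% of all tested genes). SHC1 (1.91 ± 0.10) and IRS1 (1.13 ± 0.08), both adaptors of the receptor, were among the higher ones. IRS2 was higher at E77 in the stem phase (1.30 ± 0.10) and, within E77, higher in Frontal (0.87 ± 0.07).

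Of 9 tested genes for RNA-binding proteins of IGF2 mRNA and for imprinted genes, 7 fell and 0 rose from stem to terminal. Of all tested genes 30.4% fell and 31.9% rose. All 9 were lower at E77 in the stem phase, where 60.2% of all tested genes differed in either direction. IGF2BP1, which binds IGF2 mRNA, was lower at E77 by 7.29 on the log2 scale (-7.29 ± 0.25, 0.496 against 66.7 CPM). Over all E42 days it was higher in Anterior than in Posterior (43.2 and 33.5 CPM, log2 difference 0.62 ± 0.14). Its stem-phase values were 47.6 to 90.2 CPM in Anterior and 43.7 to 79.6 in Posterior, and its terminal values 25.3 to 34.4 and 4.97 to 14.3 CPM, so the regions overlapped early and not late. H19 and CDKN1C, a growth-restraining cell cycle inhibitor, were higher in Anterior at E42 by 8.32 ± 0.28 and 3.13 ± 0.20. The imprinted gene MEST fell by 1.21 from stem to terminal (-1.21 ± 0.09).

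Genes with the pattern most like each member were ranked by Pearson r of log2 CPM over the 38 libraries, among 10570 genes with a mean of at least 10 CPM. The libraries share days and series, so r is a description. The 5 nearest to IGF2 were COL6A3, COL3A1 and ITGA11 (0.98 each) and OSR1 and TBX18 (0.97 each); without E42 Anterior their r was 0.74 to 0.89 over 29 libraries. COL6A3 and COL3A1 are collagen genes of fibroblasts and ITGA11 encodes a collagen receptor chain. The nearest to IGFBP4 was the retinoic acid-binding protein gene CRABP2 (0.96, and 0.72 without E42 Anterior), and the nearest to IGFBP6 was ITIH5 (0.95, and 0.58), so these likenesses were weaker outside that series. IGFBP7 was nearest to GPX8, SEC24D and CALU (0.96 each) and to SERPINH1 and FN1 (0.95 each), secretory pathway and matrix genes.

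The nearest genes of the other members had like r without E42 Anterior. IGF2R and IGFBP2 had the same nearest gene, the collagen chaperone FKBP10 (0.96 and 0.94, and 0.94 and 0.95 without that series), and an r of 0.92 with each other over either set of libraries. IGFBP5 was nearest to APOD, an apolipoprotein of glia and fibroblasts (0.94 in both sets), followed by MFAP4 and AFAP1L2 (0.93 each). IGFBP3 was nearest to MXRA7 (0.89) and had VIM, the intermediate filament of radial glia and fibroblasts, among its 5 (0.87). IGF1R was nearest to DIP2C (0.87, and 0.88 without E42 Anterior).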

How the data were processed

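Counts of reads and RPKM values for each gene were deposited by the authors for the same 38 poly(A)-selected, dUTP strand-specific libraries. Per the submitters' processing notes the tools were STAR and featureCounts, with no version, and the genome build and annotation are not given in the sources used here. The deposited RPKM values equalled counts divided by the library total and by 1 length per gene (coefficient of variation at most 4.06e-05 over 13494 genes), so RPKM served for levels and CPM and the counts for tests.

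Counts were tested with edgeR 4.0.16 in R 4.3.3 (quasi-likelihood, robust, TMM scaling factors 0.899 to 1.104, filterByExpr, Benjamini-Hochberg over 20794 genes, threshold 0.05), with all 38 libraries in 1 fit of 12 groups of series and phase, 26 residual degrees of freedom. Age and region comparisons had day as a block (19 residual degrees of freedom); in their leave-one-out fits the negative binomial trend of the full fit was kept. Log2 CPM used a prior count of 2. Alternatives used DESeq2 1.42.0, limma 3.58.1 on log2(RPKM + 1) and log2(RPKM + 0.1), and subsets of the libraries. Library totals had a median of 27597365.5. The errors given are edgeR standard errors or SDs over libraries. On simulated counts 100% of 200 genes changed 2-fold were recovered for the terminal against stem comparison and 0.055% of the unchanged genes were called. Those counts were drawn independently for each library from 1 mean per gene, without series or day effects. They therefore cannot show the error rate where successive days of a culture serve as replicates.

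The members and the gene lists were chosen with earlier results of these data known. Of the other lists the text could name, per comparison, up to 6 called genes with a mean of at least 10 CPM by size of change, and any other ligand, receptor or binding protein; for each member it could name the 5 genes with the most similar pattern. The comparisons of the regions within a phase at E77 and of the region differences of the phase change were added after the data were seen. Of 703 pairs of libraries none differed by less than counting noise (lowest ratio 3.47). Sequences were not analysed here.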

Additional observations from a re-analysis of the deposited data

Results flagged for a closer look

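Differences between groups under 1 contrast were tested in 4 comparisons, and 11 results for the members passed. Of all genes 19.4% passed for the age difference of the phase change and 38.6% for the region difference between ages. For the region difference of the phase change 5.44% passed at E42 and 1.52% at E77. Between E77 and E42, the change from the stem to the terminal phase differed for IGFBP2, by -0.81 on the log2 scale, and for IGFBP5, by 1.96. In the Occipital and Posterior pair alone the 2 values were -0.80 and 2.00 and did not pass (adjusted p = 0.17 and 0.16).

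The region difference over all days, Frontal against Occipital at E77 minus Anterior against Posterior at E42, was -7.65 for IGF2, -4.13 for IGFBP7, -3.96 for IGFBP6, -3.48 for IGFBP5, -2.88 for IGFBP4, -0.68 for IGFBP2 and -0.62 for IGF2R. The E42 side of each of these 7 holds the Anterior series, with 14000 to 39100 CPM of 9 fibroblast and meningeal markers; the part of those cells was not tested.

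Within E42, the change from stem to terminal in Anterior minus that in Posterior was 1.83 for IGF2 and 2.10 for IGFBP4. Of 21 recomputed fits the IGF2 result kept its direction and call in 7, and the IGFBP4 result in 20. The terminal phase of each E77 series was the only group of 4 libraries, and in 18 such groups, 9 members in 2 series, no library stood apart by Dixon's criterion.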

How the results depend on the processing

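Each of the 162 member results was recomputed under 14 other settings and with each of the 38 libraries left out in turn, where the setting applied. Of the values under other settings 1364 kept direction and call, 52 lost the call, 55 gained it and 48 changed sign; for the left-out libraries these were 2403, 34, 41 and 60. Depth limits IGF2, IGFBP6 and IGFBP7 at E77, where values rest on few reads. The cause of each change below was not tested. Same-day libraries had a median correlation of 0.22 in their deviations from the group means, over 0.1 in 44 of 55 pairs. A change over the days of a phase that the series share would also give such values. The day number is therefore not shown by them to pair the libraries.

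Without the replicate block, log2 differences that changed sign were those of E77 against E42 for IGFBP3 in the stem phase (-0.40) and for IGF1R (-0.01) and IGFBP5 (0.36) in the terminal phase, and of Frontal against Occipital in the stem phase for IGFBP6 (-0.06). Frontal against Occipital then gave 2954 genes in the stem phase, and 1640 genes and 0 members in the terminal phase.

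For the region difference of the phase change at E77, calls over all genes were 201 without the low-count filter, 587 by DESeq2's Wald test, 496 by limma without a low-value filter, 150 from only the libraries compared, 148 without day 1 and 145 without day 20, with 1 member by DESeq2 and by limma on log2(RPKM + 0.1) and 2 from only the libraries compared. At E42, limma without a low-value filter gave 1774 genes, and members called were 1 without the low-count filter, by DESeq2 or without day 1, and 0 from only the libraries compared. Frontal against Occipital in the terminal phase gave 2 members by DESeq2, by limma at either pseudocount or without the filter, and from only the libraries compared, and 0 without day 20. By limma on log2(RPKM + 1) the age difference of the phase change was called for 4 members. With 1 value per day, limma called 4069 genes for transition against stem and 2852 for terminal against transition.

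By limma on log2(RPKM + 1), with or without the filter, log2 values that changed sign were IGFBP4 in transition against stem (0.02), IGF2 in the age difference of the phase change (0.30), IGF1R in E77 against E42 in transition (0.04), in Anterior against Posterior (-0.05) and in the E42 region difference (0.03), IGFBP5 in Frontal against Occipital (0.02) and IGFBP2 in the E77 region difference (-0.00). With a pseudocount of 0.1 these were IGF1R (0.04, -0.05 and 0.03) and IGFBP5 (0.03). From only the libraries compared, IGFBP6 in Frontal against Occipital in the stem phase was -0.05 and IGF1R in the E42 region difference 0.00. Without the E42 Anterior series IGFBP3 in terminal against transition was -0.52.

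In Frontal against Anterior alone, the age difference of the phase change gave 2013 genes, IGFBP2 in the stem phase was -0.34 and IGF1R in the terminal phase -0.11. In Occipital against Posterior alone, that age difference gave 795 genes and 0 members, with IGF2 at 2.72, IGFBP3 at 0.68, IGFBP4 at 0.78 and IGFBP6 at 0.17. E77 against E42 in that pair gave 6755 genes and 3 members in the stem phase (IGF2R 0.03, IGFBP6 0.41), 6910 and 2 in transition (IGFBP5 1.02) and 5667 and 2 in the terminal phase (IGF2R 0.18, IGFBP3 0.04, IGFBP4 0.08, IGFBP5 1.67 and IGFBP6 0.09). Without day 1, IGFBP6 was 0.34 in the age difference of the phase change and -0.41 in Frontal against Occipital in the stem phase, IGFBP2 -0.16 in E77 against E42, IGF1R -0.00 and IGFBP2 -0.08 in the E77 region difference, and IGF1R 0.09, IGFBP2 -0.01 and IGFBP3 -0.28 in the E42 one. Without day 20 IGFBP2 in the E77 region difference was -0.09.

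Leaving out each library in turn gave log2 ranges that crossed 0 in the terminal against stem change of E42 Anterior for IGF2 (-0.59 to 0.16) and IGFBP5 (-0.94 to 0.37), in transition against stem for IGFBP4 (-0.21 to 0.10), and in the age difference of the phase change for IGF2 (-0.65 to 0.01) and IGFBP6 (-0.39 to 0.13). In E77 against E42 they were -0.08 to 0.09 (IGFBP2) and -0.15 to 0.88 (IGFBP3) in the stem phase, -0.07 to 0.01 (IGF1R) in transition, and -0.01 to 0.11 (IGF1R) and -0.16 to 0.08 (IGFBP5) in the terminal phase. In Frontal against Occipital they were -0.07 to 0.12 (IGFBP4) and -0.15 to 0.07 (IGFBP5) over all days, -0.07 to 0.46 (IGFBP4) and -0.57 to 0.60 (IGFBP6) in the stem phase and -0.70 to 0.03 (IGF2) in the terminal phase. In the region difference of the phase change they were -0.11 to 0.09 (IGF1R), -0.14 to 0.19 (IGFBP2) and -1.28 to 2.41 (IGFBP3) at E42 and -0.25 to 0.26 (IGFBP2) at E77. Counts ran from 719 to 1488 genes and 1 to 2 members for that difference at E42, 148 to 500 genes and 0 to 1 members at E77, 3077 to 4766 genes for Frontal against Occipital in the stem phase and 0 to 2 members in the terminal phase.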
